A study of Mus musculus with 6 samples.

Results

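The nuclear genome encodes most subunits of the mitochondrial respiratory chain and ATP synthase. Their transcripts were compared between GPR35-positive and GPR35-negative libraries labelled as tumour neutrophils, which also held hepatocyte and hepatoma transcripts. Members were taken by symbol from the GENCODE M21 annotation: every gene whose symbol starts with Nduf, Uqcr, Cox4i, Cox5, Cox6, Cox7, Cox8 or Atp5, and Sdha, Sdhb, Sdhc, Sdhd, Cycs and Cyc1. Of 109 matching genes, 12 processed pseudogenes had no row in the deposited table, and 97 of its 21959 genes were members. These were 38 genes of complex I, 4 of complex II, 9 of complex III, 18 of complex IV, 18 of complex V, cytochrome c, 8 complex I assembly factors whose symbols start with Ndufaf, and Ndufb1-ps, which is annotated as non-coding. The symbols fix the classes, and some members sit in them by name only. Ndufa4, classed in complex I with its paralogue Ndufa4l2, is now counted as a complex IV subunit. Cox7a2l is counted as a factor of supercomplexes, and Atp5s is no ATP synthase subunit.

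The series holds 6 mouse RNA-seq libraries, 3 of GPR35-negative and 3 of GPR35-positive neutrophils by their labels, taken from tumours grown from the mouse hepatoma line Hepa1-6. GPR35 is a G protein-coupled receptor. No genotype, treatment, age or time is given in the sources used here, and neither is how the cells were divided by GPR35. The labels do not state that each replicate is another animal: the p-values rest on the spread among these libraries alone, and that spread may be technical.

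Electrons from NADH enter the chain at complex I and those from succinate at complex II. They pass through ubiquinone to complex III, by cytochrome c to complex IV and on to oxygen, while complexes I, III and IV pump protons across the inner membrane and complex V uses the returning protons to make ATP. Mature neutrophils are known for relying mainly on glycolysis and for holding few mitochondria, whereas hepatocytes hold many. A few core subunits of complexes I, III, IV and V are encoded in mitochondrial DNA and are described apart.

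Levels are FPKM, fragments scaled by exon length and by the number of reads in that library, and log2 changes are GPR35-positive minus GPR35-negative on the log2(FPKM + 1) scale. The libraries held 15742744 to 18314104 reads assigned to genes, worked out from the spacing of low FPKM values. Gpr35 was at 1.57 ± 0.398 FPKM in the GPR35-negative libraries and 20.2 ± 1.89 FPKM in the GPR35-positive ones (SD, n = 3 a group). The 12 mature neutrophil markers summed to 883 to 1130 FPKM in the GPR35-negative libraries and 9642 to 10590.2 FPKM in the GPR35-positive ones, 10.03-fold higher, and the 9 macrophage and monocyte markers to 36.9 to 50.4 and 938 to 969.6 FPKM, 21.7-fold higher. The 12 hepatocyte and hepatoma markers summed to 24699 to 26012 and 16454 to 16853 FPKM, a ratio of 0.655, and all 12 were above 0. All 12 neutrophil markers and all 8 macrophage markers tested rose, and 10 of 12 hepatocyte markers fell and 1 rose. The summed T and NK cell markers went from 48.0 ± 6.49 to 35.5 ± 0.970 FPKM, and those of endothelium from 3.25 ± 0.369 to 4.46 ± 0.478 FPKM. Markers of muscle, B cells and red cells summed to at most 1.42 FPKM in any library. In such bulk samples fewer cells of a type and less RNA per cell cannot be told apart, and the part of the marker differences in the values below was not tested.

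Most members were somewhat lower in GPR35-positive libraries and a single protein-coding member, Cox4i2, was much higher. Of 96 protein-coding members 89 passed the filter of at least 1 FPKM in at least 3 libraries; 53 of them fell, 1 rose and 35 did not pass the test (limma-trend, adjusted p below 0.05), with a median log2 change of −0.24. Over all 10060 genes tested, 45.5% were called lower and 23.3% higher, and the median log2 change was −0.19. The 53 falls were small, from a ratio of means of 0.688 for Atp5a1 to 0.876 for Uqcr11. The groups did not overlap, with GPR35-positive lower, in 60 of the 89 members, against 48.2% of all genes tested, and with GPR35-positive higher in 1, against 24.3%. The members summed to 10454, 10172 and 10869 FPKM in the GPR35-negative libraries and to 9113, 8473 and 9130 FPKM in the GPR35-positive ones, which was 3.10% to 3.26% and 2.54% to 2.70% of all FPKM.

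The number of falls depended on the scaling between libraries. With median-of-ratios scaling, which sets the median ratio over genes to be alike in every library, 20 members were lower and 3, Cox4i2, Ndufa1 and Sdhd, higher, against 30.1% and 27.3% of all genes. With limma-voom and TMM factors on reads recovered from the FPKM, 5 members were lower and 8 higher, against 22.2% and 30.2% of all genes. The median of all genes moved from −0.19 to −0.07 and −0.01 under these scalings, and that of the members from −0.24 to −0.09 and −0.03. When a mean of 5 FPKM or more was required, the members and all genes had like medians, both −0.24. The 20 and the 5 lower members were all among the 53. Ndufv1 of complex I and Atp5a1, Atp5b and Atp5g2 of complex V were lower under each of the 14 settings tried, and Cox4i2 was higher under each. "Fell" and "rose" below refer to the FPKM as deposited unless another scaling is named.

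The 5 complexes differed in how far their median lay from 0. Complex I had the lowest median log2 change, −0.31 over 37 members tested, of which 28 fell and 0 rose by limma-trend; Ndufa1 alone was higher at an unadjusted p below 0.05, 1 was higher with median-of-ratios scaling and 2 with limma-voom. Complex III followed at −0.22 with 6 of 9 lower, complex V at −0.19 with 9 of 17 lower, complex IV at −0.11 with 4 of 13 lower and Cox4i2 higher, and complex II at −0.03 with 1 of 4 lower. The shares lower were 75.7% in complex I, 66.7% in III, 52.9% in V, 30.8% in IV and 25% in II. Of all genes tested, 45.5% were lower, so complex V was near that share and complexes IV and II were below it. Complexes I and III were above it only as deposited. With median-of-ratios scaling 9 of 37 in complex I and 1 of 9 in complex III were lower, against 30.1% of all genes. With limma-voom 2 of 37 and 0 of 9 were lower, against 22.2%. Neither complex was above the share of all genes under these 2 scalings. Complex I had the lowest and complex II the highest median under each of the 14 settings. The order between them held under 12 settings, and complexes III and V changed places when GPR35-negative replicate 1, or GPR35-positive replicate 2, was left out. The medians of complexes II and IV were above 0 with median-of-ratios scaling, at 0.11 and 0.03, and with limma-voom, at 0.18 and 0.10, while complex I stayed below 0 at −0.17 and −0.10.

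**Figure D1:**
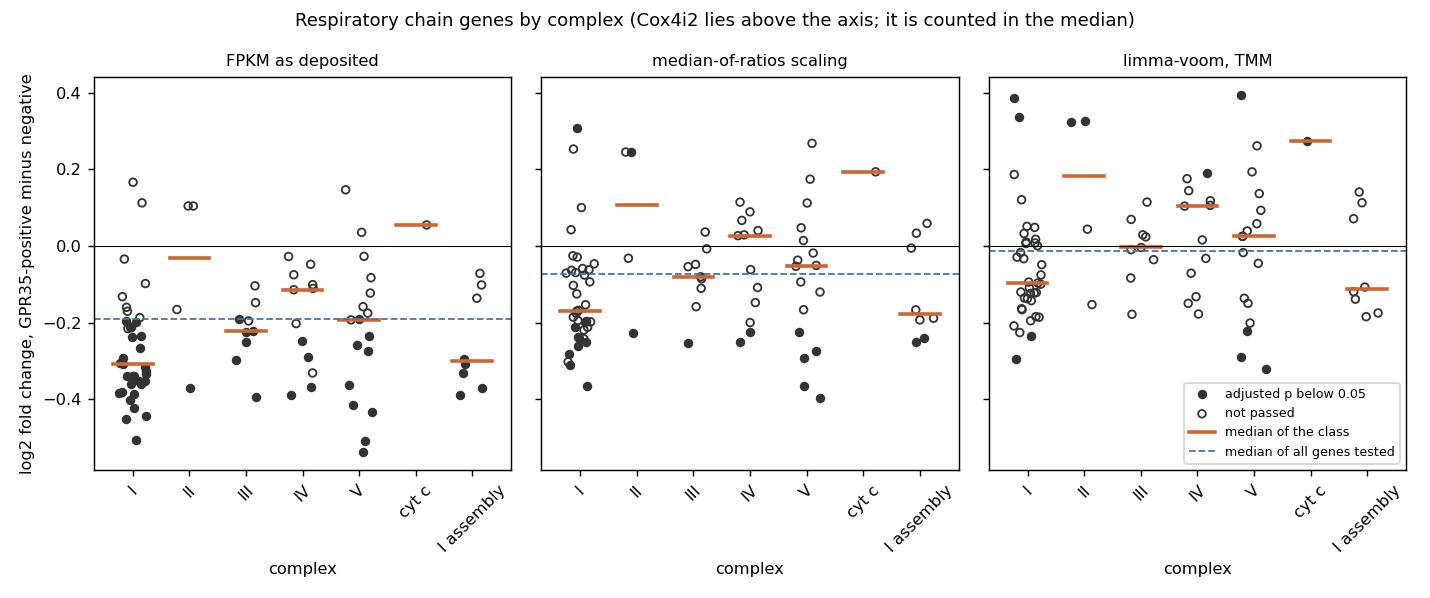
Log2 fold change (GPR35-positive minus GPR35-negative) of each tested member, by complex, under 3 scalings; filled points passed at an adjusted p below 0.05, orange bars are class medians and the dashed line is the median of all genes tested. The points shift upward from the deposited FPKM to limma-voom while complex I keeps the lowest and complex II the highest median of the 5 complexes, at −0.31 and −0.03 as deposited; Cox4i2, at 2.89 as deposited, lies above the axis.

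Summed levels, in which abundant members weigh most, gave another order. The 18 complex V genes summed to 1827, 1823 and 1816 FPKM in the GPR35-negative libraries and to 1414, 1403 and 1434 FPKM in the GPR35-positive ones, a ratio of 0.778. Complex I summed to 4029.7, 3866 and 4285 FPKM against 3499, 3114 and 3461 FPKM, a ratio of 0.827. These 2 classes did not overlap between the groups. The ratios were 0.855 for complex III and 0.910 for complex IV, also without overlap, and 0.942 for complex II, whose groups overlapped. Set against complex IV in the same library, which removes any scaling, complex I was at 169%, 166% and 174% of the complex IV sum in the GPR35-negative libraries and at 160.0%, 149% and 153% in GPR35-positive libraries. Complex V was at 76.6%, 78.2% and 73.7% of it and at 64.7%, 67.0% and 63.5%. Complex III was at 64.0%, 63.7% and 65.3% of it and at 61.6%, 60.4% and 59.5%. All 3 shares were lower in every GPR35-positive library than in any GPR35-negative one, while complex II lay between 17.2% and 19.5% of the complex IV sum in all 6 libraries with the groups overlapping. Shares of complex IV were not among the comparisons set beforehand, so these gaps are no test.

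**Figure D2:**
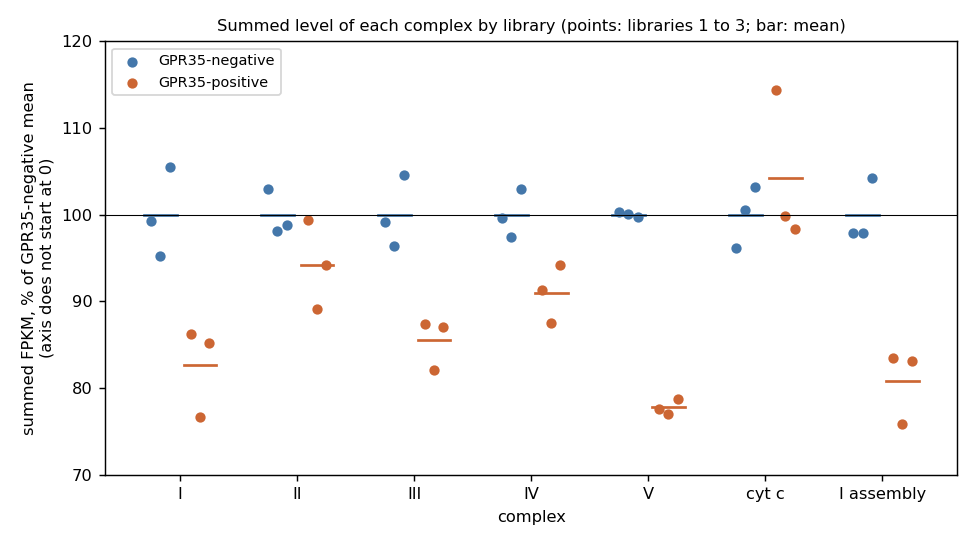
Summed FPKM of each complex in each library as a percentage of the GPR35-negative mean (points, libraries 1 to 3 from left to right; bars, group means; the axis does not start at 0). Complex V is lowest with the least spread, and complex II and cytochrome c overlap between the groups. GPR35-positive replicate 2 is the lowest of its group in each of the 5 complexes.

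Single libraries shaped these values. GPR35-positive replicate 2 was the lowest of its group in 68 of 90 members tested (75.6%), against 33.3% of all genes tested, and GPR35-negative replicate 3 was the highest of its group in 61 (67.8%), against 29.9%. Without GPR35-positive replicate 2, 40 members fell (45.5%), against 44.1% of all genes, and the median of the members, −0.20, was no lower than that of all genes, −0.21. Without that library the share of falls among the members was thus close to that of all genes. The share also depended on scaling. With all 6 libraries it was 22.5% against 30.1% of all genes with median-of-ratios scaling, and 5.62% against 22.2% with limma-voom. Without GPR35-negative replicate 3, 46 fell (52.3%), against 44.9% of all genes.

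Complex I showed lower transcripts of its electron-carrying core. All 7 core subunits that hold the flavin, the iron-sulfur clusters or the quinone site fell, with a median log2 change of −0.32. With median-of-ratios scaling 3 of them were lower, and with limma-voom 2. Of all genes, 45.5% were lower as deposited, 30.1% with median-of-ratios scaling and 22.2% with limma-voom. Of 30 accessory subunits tested 21 fell, with a median of −0.30. Ndufv1 binds NADH and the flavin, the entry point of electrons. It was at 88.9, 85.2 and 82.5 FPKM in the GPR35-negative libraries and at 59.9, 60.7 and 59.2 FPKM in the GPR35-positive ones. The groups lay far apart and the GPR35-positive libraries were close together: the log2 change was −0.51 (standard error 0.06, adjusted p = 6.64e-05), and it was −0.37 with median-of-ratios scaling and −0.29 with limma-voom.

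Among members classed as accessory subunits the smallest p-values belonged to Ndufa10, Ndufa4, which is in this class by name only, and Ndufa5. Ndufa10 went from 83.3 ± 1.34 to 65.1 ± 1.59 FPKM (SD, n = 3 a group), a log2 change of −0.35 (adjusted p = 0.000631, limma). Ndufa5 went from 76.0, 74.6 and 76.6 FPKM to 53.6, 53.0 and 62.6 FPKM, a log2 change of −0.42 (adjusted p = 0.000817). Both were without overlap and were lower with median-of-ratios scaling but did not pass with limma-voom. Ndufa2, the most abundant complex I member, was at 481, 453 and 498 FPKM and at 429.6, 375 and 433 FPKM. Its fall of 0.21 (adjusted p = 0.0314) was close to the median of all genes, and its value was 0.01 with limma-voom.

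Of 9 complex I members that did not pass, Ndufa1 and Ndufa3 had log2 changes above 0. Ndufa1, an accessory subunit of the membrane arm encoded on the X chromosome, was at 180.2, 159 and 175 FPKM in the GPR35-negative libraries and at 199, 179 and 199 FPKM in the GPR35-positive ones. The groups overlapped, since GPR35-positive replicate 2 lay just below GPR35-negative replicate 1. Its log2 change was 0.17 (adjusted p = 0.0677), 0.31 after median-of-ratios scaling (adjusted p = 0.00722) and 0.39 with limma-voom (adjusted p = 0.00249). Ndufa1 and Ndufv1 thus differed in direction in the same libraries under every one of the 14 settings.

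**Figure D3:**
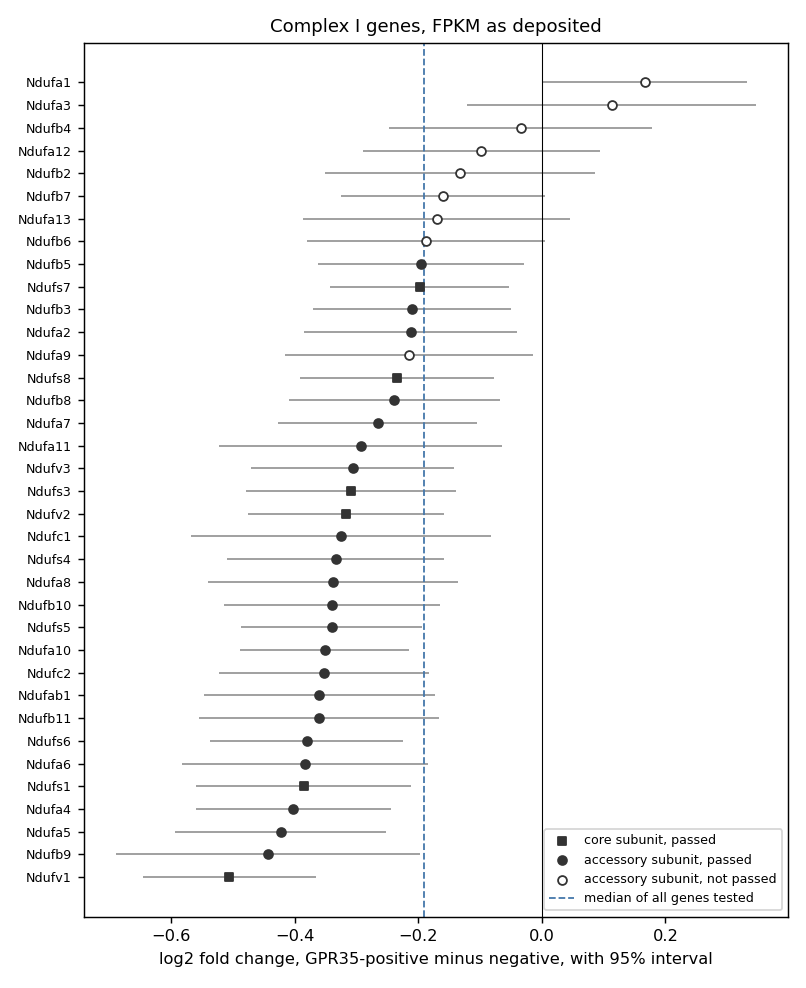
Log2 fold change with 95% interval of 36 complex I members tested, on deposited FPKM; squares are core subunits, circles accessory subunits, filled symbols passed at an adjusted p below 0.05 and the dashed line is the median of all genes tested. All 6 core subunits shown lie below 0, from −0.51 for Ndufv1 to −0.20 for Ndufs7, and Ndufa1 and Ndufa3 alone lie above 0.

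The assembly factors of complex I, which help to build it and do not stay in it, were lower to a like degree. Of 8 tested, 5 fell (Ndufaf2, Ndufaf4, Ndufaf5, Ndufaf6 and Ndufaf8) and 3 did not pass, with a median of −0.30. With median-of-ratios scaling 2 were lower. Of all genes, 45.5% were lower as deposited and 30.1% with median-of-ratios scaling. Ndufaf6 was at 65.2, 74.9 and 78.6 FPKM and at 57.4, 51.1 and 57.6 FPKM, without overlap. Ndufb1-ps, at 25.1, 26.2 and 35.04 FPKM and at 39.3, 35.6 and 41.0 FPKM, rose by a log2 change of 0.43 (standard error 0.12, adjusted p = 0.00862) and was higher under each of the 14 settings. Its exons share 147 bases with Cpsf2 on the opposite strand, and without strand in the counting the reads of the 2 genes cannot be told apart.

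In complex II only the catalytic subunit Sdha was called lower. Sdha, the flavoprotein that oxidizes succinate, was at 175, 183 and 178 FPKM in the GPR35-negative libraries and at 143, 139 and 133 FPKM in the GPR35-positive ones. Every GPR35-positive library lay below every GPR35-negative one: the log2 change was −0.37 (standard error 0.06, adjusted p = 0.000538), −0.23 after median-of-ratios scaling (adjusted p = 0.0147) and −0.15 with limma-voom (adjusted p = 0.0735). Sdhb, the iron-sulfur subunit, was at 100.4, 88.0 and 106 FPKM and at 119.8, 92.8 and 105 FPKM, with overlapping groups. Its log2 change was 0.10 (95% interval −0.12 to 0.33, adjusted p = 0.374), and 0.33 with limma-voom (adjusted p = 0.0211). Sdhd, a membrane anchor at the ubiquinone site, was at 149.6, 136 and 123 FPKM and at 148, 138 and 152 FPKM. It too overlapped, with a log2 change of 0.10 (95% interval −0.08 to 0.29, adjusted p = 0.272), but was called higher with median-of-ratios scaling (0.25, adjusted p = 0.0225) as well as limma-voom (0.32, adjusted p = 0.00669). The other anchor, Sdhc, was at 17.2 ± 1.26 and 15.3 ± 1.39 FPKM (SD, n = 3 a group) and did not pass. Its log2 change, −0.17 (95% interval −0.36 to 0.03), had the same sign as that of Sdha. As a share of Sdhb in the same library, which no scaling changes, Sdha was at 174%, 208% and 168% in the GPR35-negative libraries and at 119%, 149% and 126% in GPR35-positive libraries. These shares did not overlap. The pair is not one of the isoform pairs and was chosen with the values known, so the gap is no test.

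Promoters of 75 members, from 250 bases before to 50 after the start of transcription, were taken from RefSeq on GRCm38.p6; they are shown here for Sdha and Sdhd, which differed in direction within one complex, and for Cox6a1 and Ndufv1, the falling members of complexes IV and I with the smallest p that had an entry. Capitals mark the NRF1 half-site TGCGCA and the ETS-factor core CCGGAAG or its reverse complement CTTCCGG. NRF1 and the ETS factor GABP are known regulators of respiratory genes. Sdha, chr13:74350191-74350490 on the reverse strand, held 2 NRF1 half-sites.
Sdha: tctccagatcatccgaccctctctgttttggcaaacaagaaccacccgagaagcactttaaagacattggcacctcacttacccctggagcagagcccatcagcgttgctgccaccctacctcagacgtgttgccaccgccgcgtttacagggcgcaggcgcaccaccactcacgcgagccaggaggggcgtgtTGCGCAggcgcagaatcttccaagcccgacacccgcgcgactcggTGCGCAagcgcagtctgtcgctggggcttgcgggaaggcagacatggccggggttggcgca
Sdhd, chr9:50603800-50604099 on the reverse strand, held 2 NRF1 half-sites and 1 ETS core.
Sdhd: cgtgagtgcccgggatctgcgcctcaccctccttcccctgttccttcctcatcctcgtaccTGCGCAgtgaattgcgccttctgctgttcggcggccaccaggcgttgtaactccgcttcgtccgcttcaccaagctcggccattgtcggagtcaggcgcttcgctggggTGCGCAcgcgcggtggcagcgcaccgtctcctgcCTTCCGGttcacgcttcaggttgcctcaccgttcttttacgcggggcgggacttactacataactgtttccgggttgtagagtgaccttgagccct
Cox6a1, chr5:115348909-115349208 on the reverse strand, held 1 of each.
Cox6a1: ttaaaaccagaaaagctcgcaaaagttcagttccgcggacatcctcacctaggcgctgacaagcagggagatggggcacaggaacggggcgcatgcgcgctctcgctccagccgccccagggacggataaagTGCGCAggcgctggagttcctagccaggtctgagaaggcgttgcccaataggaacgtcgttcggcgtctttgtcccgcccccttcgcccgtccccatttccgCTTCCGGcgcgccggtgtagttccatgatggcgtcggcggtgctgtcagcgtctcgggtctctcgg
Ndufv1, chr19:4012706-4013005 on the reverse strand, held none of these letters.
Ndufv1: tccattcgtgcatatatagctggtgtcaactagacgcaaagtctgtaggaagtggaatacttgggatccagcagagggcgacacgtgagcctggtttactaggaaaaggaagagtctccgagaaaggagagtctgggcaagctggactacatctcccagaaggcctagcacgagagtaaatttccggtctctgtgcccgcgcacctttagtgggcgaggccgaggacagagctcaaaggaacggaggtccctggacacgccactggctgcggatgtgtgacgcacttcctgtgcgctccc
Whether these letters go with the direction of change was not tested. Over the members with a promoter, 18 of 75 (24%) held the NRF1 half-site on either strand, against 8.79% of 27025 genes with a promoter of the same length, and 18 (24%) held the ETS core, against 9.93%. The YY1 core AAGATGGC, or GCCATCTT on the other strand, was in 10 (13.3%), against 3.19%. The 27025 genes were neither limited to expressed genes nor matched to the members in base composition. A match is a run of letters and not a measured binding site.

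Complex III fell in its catalytic, core and hinge subunits. Cyc1, the cytochrome c1 subunit that passes electrons to cytochrome c, was at 169, 178 and 189 FPKM in the GPR35-negative libraries and at 142, 133 and 133 FPKM in the GPR35-positive ones. It had no overlap and the largest fall of the complex, a log2 change of −0.39 (standard error 0.07, adjusted p = 0.000598), and it alone of the complex was lower with median-of-ratios scaling (adjusted p = 0.0164). Uqcrh, the hinge protein between cytochrome c1 and cytochrome c, was at 85.2, 78.1 and 76.5 FPKM and at 65.5, 61.9 and 66.8 FPKM (log2 change −0.30, adjusted p = 0.00353). The core proteins Uqcrc1 and Uqcrc2 and the Rieske iron-sulfur protein Uqcrfs1 fell by 0.25, 0.23 and 0.22 on the log2 scale, each without overlap (adjusted p = 0.0119, 0.0130 and 0.0124). Uqcr10, the most abundant member of the complex, overlapped at 339.9 ± 44.3 and 295.5 ± 19.7 FPKM (SD, n = 3 a group) and did not pass (adjusted p = 0.0920).

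Cytochrome c itself did not pass. Cycs was at 38.8, 40.5 and 41.6 FPKM in the GPR35-negative libraries and at 46.1, 40.2 and 39.6 FPKM in the GPR35-positive ones. GPR35-positive replicate 1 stood above the other 5 libraries, which lay within one range, and the log2 change was 0.06 (95% interval −0.12 to 0.23, adjusted p = 0.536). It was 0.28 with limma-voom (adjusted p = 0.0143). Of the 50-base words of its exons, 26.1% also occur in other genes, so its reads may have been lost or shared.

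The largest difference of all members was a subunit isoform of complex IV. Cox4i2, the alternative form of subunit 4 known from lung and from cells in low oxygen, was at 0.883, 1.20 and 1.13 FPKM in the GPR35-negative libraries and at 14.8, 13.99 and 14.3 FPKM in the GPR35-positive ones. Each group was tight and they lay 13.4-fold apart: the means were 1.07 ± 0.166 and 14.4 ± 0.419 FPKM (SD, n = 3 a group), with a log2 change of 2.89 (standard error 0.09, adjusted p = 1.51e-09). These values rested on 12, 16 and 14 reads against 200, 180 and 206 reads, with exact 95% Poisson intervals (for counting error only) from 6.201 to 26.0 and from 155 to 236 reads. Of 10060 genes tested, 166 had a larger log2 change. Over the 14 settings the log2 change ran from 2.83 to 3.93 and the adjusted p did not exceed 7.37e-07. The rise stood between the 10.03-fold of the summed neutrophil markers and the 21.7-fold of the macrophage and monocyte markers in the same libraries; the part of either cell type was not tested.

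The common form Cox4i1 moved the other way. It was at 332, 341 and 355 FPKM and at 277, 274 and 289 FPKM, with no overlap, a log2 change of −0.29 (standard error 0.06, adjusted p = 0.00247). With median-of-ratios scaling it was −0.15 (adjusted p = 0.103). Cox4i2 stayed the minor form: as a share of Cox4i1 in the same library it was at 0.266%, 0.352% and 0.318% in the GPR35-negative libraries and at 5.34%, 5.11% and 4.93% in GPR35-positive libraries (two-sided exact permutation p = 0.1, the smallest that 3 against 3 allows). The 60 bases in which the 2 coding sequences are most alike are shown because they bear on whether reads of one form could count for the other; capitals mark the bases that differ, and positions count from the A of the start codon in GENCODE M21 transcripts. They are bases 450 to 509 of 510 in Cox4i1 and 459 to 518 of 519 in Cox4i2.
Cox4i1: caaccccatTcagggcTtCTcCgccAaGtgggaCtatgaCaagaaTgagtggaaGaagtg
Cox4i2: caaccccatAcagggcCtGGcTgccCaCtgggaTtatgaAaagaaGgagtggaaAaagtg
In this window 49 bases were identical and 11 differed, and the longest run the 2 coding sequences share anywhere was 14 bases. None of the 50-base words of the Cox4i2 exons (0%) occurs in another gene and no exon of another gene overlaps it. Cox4i2, ENSMUSG00000009876, spans chromosome 2, forward strand, 152754173 to 152765037 (GRCm38).

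**Figure D4:**
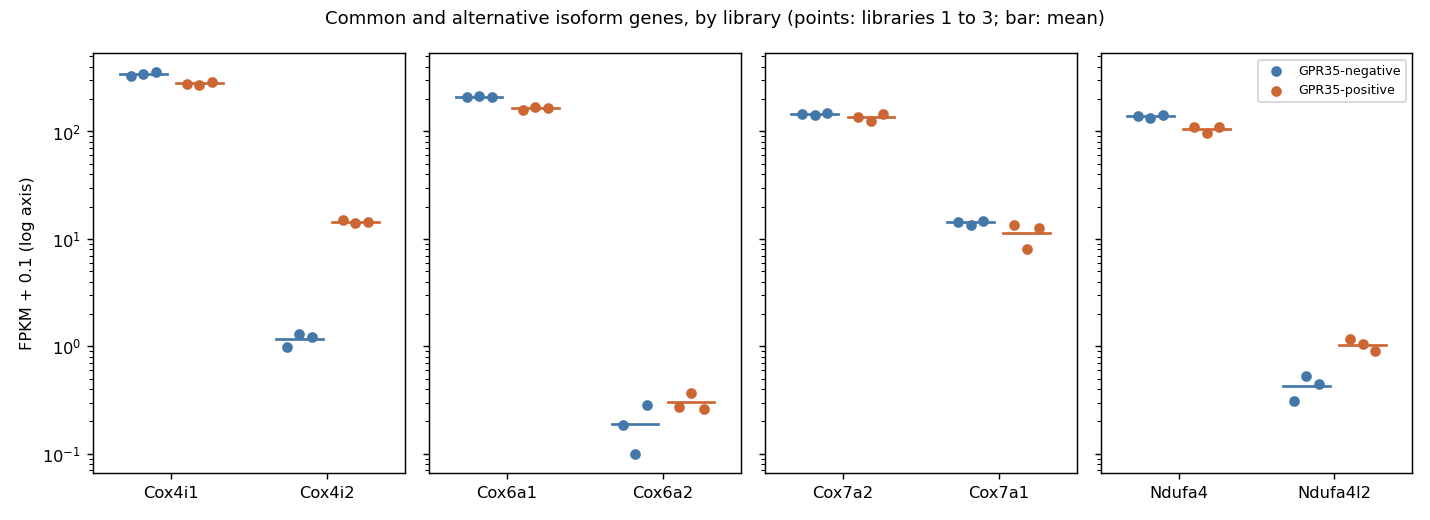
FPKM + 0.1 on a log axis of 4 common subunit genes and their alternative forms in each library (points, libraries 1 to 3; bars, group means). Cox4i2 moves from about 1 to about 14 FPKM while Cox4i1 falls; Ndufa4l2 is higher in every GPR35-positive library at under 1.1 FPKM, Cox6a2 stays under 0.3 FPKM, and Cox7a1 is lowest in GPR35-positive replicate 2.

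The other tissue-bound isoforms of complex IV were low or did not pass. The muscle form Cox6a2 had 0 to 2 reads per GPR35-negative library and 2 to 3 reads per GPR35-positive library. Its common form Cox6a1 was at 211, 213 and 210.5 FPKM and at 159, 168 and 165 FPKM. Cox6a1 fell by 0.37 on the log2 scale (standard error 0.06, adjusted p = 0.000443) with no overlap. The muscle form Cox7a1 was at 14.3, 13.35 and 14.7 FPKM and at 13.31, 8.01 and 12.5 FPKM, with groups that nearly touch and one low library (log2 change −0.33, adjusted p = 0.0728). Its counterparts Cox7a2 and Cox7a2l were at 146 and 60.2 FPKM in the GPR35-negative libraries and at 136 and 55.7 FPKM in the GPR35-positive ones, and neither passed. Cox8b, Cox8c, Cox7b2 and Cox6b2, known from muscle or testis, had at most 2 reads in any library, a depth at which no difference was detectable. The summed muscle markers lay between 0 and 0.204 FPKM over all 6 libraries.

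Ndufa4 and its low paralogue Ndufa4l2 also differed in opposite directions. Ndufa4 was at 140.4, 134 and 143 FPKM and at 109, 97.3 and 109.8 FPKM, a log2 change of −0.40 (standard error 0.07, adjusted p = 0.000653). Ndufa4l2, known as a hypoxia-induced gene, was at 0.212, 0.431 and 0.348 FPKM and at 1.07, 0.951 and 0.798 FPKM, from 4, 8 and 6 reads against 20, 17 and 16 reads. The groups did not overlap. It was below the filter as deposited, and was called higher in both settings in which it was tested, without a filter (adjusted p = 0.00203) and with rescaling to TPM (adjusted p = 0.000625).

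The catalytic core of complex IV is encoded in mitochondrial DNA, and its nuclear subunits were split. Besides Cox4i1 and Cox6a1, Cox6c (65.8 ± 1.71 to 50.01 ± 2.46 FPKM, SD, n = 3 a group, log2 change −0.39, adjusted p = 0.000558) and Cox7b (104 ± 4.79 to 87.4 ± 3.49 FPKM, −0.25, adjusted p = 0.00754) fell, while 8 of 13 did not pass. Only Cox6a1 and Cox6c of these 4 were lower with median-of-ratios scaling and none was with limma-voom. Cox6b1, with the highest level of all members, was at 598, 559 and 624 FPKM in the GPR35-negative libraries and at 593, 516 and 584 FPKM in the GPR35-positive ones. Its groups overlapped, with a log2 change of −0.07 (95% interval −0.25 to 0.10, adjusted p = 0.405). Cox8a overlapped as well, at 560.0, 532 and 564 FPKM and at 522, 541 and 562 FPKM (log2 change −0.03, 95% interval −0.17 to 0.12, adjusted p = 0.722; 0.19 and called higher with limma-voom). Cox5a and Cox5b, small subunits around the core, were at 27.9 and 146 FPKM and at 26.8 and 135 FPKM, and did not pass. Ndufv1 of complex I, as a share of Cox8a in the same library, was at 15.9%, 16.02% and 14.6% in the GPR35-negative libraries and at 11.5%, 11.2% and 10.5% in GPR35-positive libraries. Those shares did not overlap. The pair is not one of the isoform pairs and was chosen with the values known, so the gap is no test.

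Complex V fell most in Atp5a1 and Atp5b of its catalytic head. Of 5 genes of F1, the head that makes ATP with its central stalk, 4 fell, with a median over the 5 of −0.42. Of 12 tested genes of the membrane part, the outer stalk and associated proteins 5 fell, with a median of −0.17. These were 80% and 41.7%, against 45.5% of all genes. Atp5e of F1, at −0.19, did not pass, while Atp5g2 outside it was at −0.43. Summed FPKM of F1 had a ratio of 0.743 and of the rest 0.870. Atp5a1, the alpha subunit, was at 452, 469.5 and 460.3 FPKM in the GPR35-negative libraries and at 310.4, 322 and 318 FPKM in the GPR35-positive ones. It had the largest fall of the members, without overlap: the log2 change was −0.54 (standard error 0.06, adjusted p = 3.31e-05), −0.40 with median-of-ratios scaling and −0.32 with limma-voom.

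Atp5b, the beta subunit that carries the catalytic sites with alpha, was at 401, 390.4 and 352 FPKM and at 261, 276 and 265 FPKM. Its groups did not overlap either, with a log2 change of −0.51 (standard error 0.07, adjusted p = 0.000147), and its means were 381 ± 25.9 and 268 ± 7.78 FPKM (SD, n = 3 a group). Atp5d, the delta subunit of the central stalk, fell by 0.42 (adjusted p = 0.00103). The gamma subunit gene Atp5c1, which turns inside the head, fell less, by 0.24 (adjusted p = 0.0107), and was not called with median-of-ratios scaling. As a share of Atp5c1 in the same library, Atp5a1 was at 159%, 169% and 161% in the GPR35-negative libraries and at 121%, 142% and 134% in GPR35-positive libraries, without overlap. This pair is not one of the isoform pairs and was chosen with the values known, so the gap is no test.

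The 3 genes of the c subunit, which forms the turning ring in the membrane, encode one mature protein. Atp5g2 was at 73.5, 78.9 and 74.7 FPKM and at 53.6, 58.1 and 55.8 FPKM (log2 change −0.43, adjusted p = 0.000271), and Atp5g3 fell by 0.36 (adjusted p = 0.00108). Atp5g1 was at 37.6 ± 2.07 and 33.2 ± 2.11 FPKM (SD, n = 3 a group) and did not pass (−0.17, adjusted p = 0.0614), although its groups did not overlap. Of the 50-base words of Atp5g2, 38.3% occur in other genes, so its counts are uncertain. Atp5k and Atp5l, small membrane subunits, had log2 changes above 0, at 0.04 and 0.15, and neither passed. One of 2 gene entries named Atp5o was at 0 in all 6 libraries, and the other, for the subunit that ties the head to the outer stalk, was at 11.7 and 10.96 FPKM.

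The other lists of respiratory genes were set beside the members. Of 13 subunits encoded in mitochondrial DNA 11 were tested. Of these 1 rose and 0 fell, against 23.3% and 45.5% of all genes, and their median log2 change was −0.03. At an unadjusted p below 0.05 in limma-trend, or with limma-voom, 0 were lower. The one that rose, mt-Cytb, the cytochrome b of complex III, was at 85.1 ± 12.3 and 106 ± 10.8 FPKM (SD, n = 3 a group) with overlapping groups (log2 change 0.32, adjusted p = 0.0226). The sum of the 13 ran from 1323 to 2374 FPKM in the GPR35-negative libraries and from 1738 to 1818 FPKM in the GPR35-positive ones, with a wider spread among the GPR35-negative libraries (SD 526 FPKM) than any nuclear complex showed. Their levels are uncertain: mt-Co1 was at 590.4 to 1231 FPKM while mt-Co2 and mt-Co3 were at 2.03 to 3.05 FPKM in every library.

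Of 37 assembly factors with other symbols 33 were tested, 15 fell and 3 rose, with a median of −0.18, close to the 45.5% of all genes called lower and their median of −0.19. Among those that fell were Tmem70, needed for ATP synthase, at 92.9 ± 1.95 to 66.2 ± 2.80 FPKM (SD, n = 3 a group, adjusted p = 0.000103), Lrpprc, which stabilizes mitochondrial mRNA (log2 change −0.73, adjusted p = 0.000142), and the copper-insertion factor Cox11 (−0.63, adjusted p = 0.000204). Cox17, the copper chaperone of complex IV, went the other way, from 0.984, 0.695 and 0.748 FPKM to 3.60, 4.49 and 4.35 FPKM. Its groups did not overlap, with a log2 change of 1.51 (adjusted p = 4.11e-07). Cox17 reached 1 FPKM only in GPR35-positive libraries, and so passed the filter only through the group where it was high. Its p-value is therefore no support for the difference. Coa3 and Sdhaf1 rose by 0.45 each.

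Of 17 enzymes of the tricarboxylic acid cycle and its pyruvate entry, which supply the chain with NADH and succinate, 13 fell and 0 rose, with a median of −0.34. Of all genes tested, 45.5% were lower and 23.3% higher. With median-of-ratios scaling 7 were lower and with limma-voom 6, against 30.1% and 22.2% of all genes. In this list 0 were higher at an unadjusted p below 0.05 in limma-trend, or with limma-voom. Idh2 fell from 168 ± 6.10 to 105 ± 4.84 FPKM (SD, n = 3 a group, log2 change −0.67, adjusted p = 1.16e-05), Fh1 by 0.62, Dlat by 0.55 and Suclg1 by 0.40. Of 15 genes of ubiquinone synthesis and of other electron inputs with a row, 14 were tested and 6 fell, with a median of −0.21, no larger a share than the 45.5% of all genes. Those with the smallest p were Coq9 (−0.49, adjusted p = 0.000309), Coq4, Coq6 and Sqor. Of 14 transcriptional regulators of respiratory genes 10 were tested and 7 fell, against 45.5% of all genes, with a median of −0.31. With median-of-ratios scaling 5 were lower, against 30.1% of all genes. Myc, at 336 ± 23.9 and 211 ± 6.58 FPKM (SD, n = 3 a group), fell by 0.67 (adjusted p = 2.12e-05), and Polrmt, the mitochondrial RNA polymerase, Hcfc1 and the coactivator Pprc1 fell by 0.63, 0.74 and 0.78. The coactivator Ppargc1a was below the filter, at 0.505 to 0.694 FPKM.

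**Figure D5:**
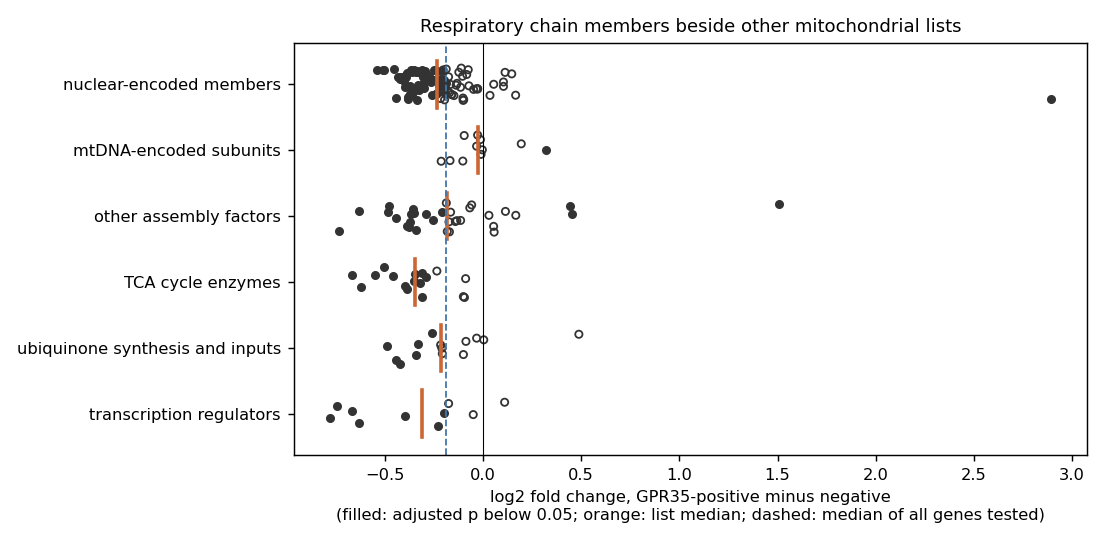
Log2 fold change (GPR35-positive minus GPR35-negative, deposited FPKM) of the members and of 5 other mitochondrial lists; each point is a gene tested, filled points passed at an adjusted p below 0.05, orange bars are list medians and the dashed line is the median of all genes tested. Cox4i2 at 2.89 and Cox17 at 1.51 stand apart from their lists, and tricarboxylic acid cycle enzymes have the lowest median, −0.34. Cox17 passed the filter only through the GPR35-positive libraries.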

How the data were processed

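The authors deposited 1 table of FPKM with 1 column per library, per the file headers. All 6 value columns were used and 0 were not. RNA was taken up in Trizol and libraries were made with a NEBNext Ultra II kit, per the labels' protocols. Tools listed in the submitters' processing notes, with no role, are HTSeq 0.9.1, DESeq 1.38.3, HISAT2 2.1.0 and fastp 0.22.0. The notes give GRCh38, a human build, although the gene IDs are mouse ones. Use of strand in counting: not given in the sources used here.

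Symbols, positions and exon lengths came from GENCODE M21 (GRCm38), which held 21902 of 21959 IDs. With those lengths 97.6% of values above 0 were whole reads to within 0.02, as were all values of the 97 members, and the library totals were read from these steps. The fewest reads of a tested member in a library were 12. Exons of another gene overlap those of 34 members, and 10 share at least 20% of their 50-base words with other genes, so their counts are uncertain.

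The test was limma-trend (limma 3.58.1, R 4.3.3) on log2(FPKM + 1), two-sided, over all genes that reached 1 FPKM in 3 or more libraries, with Benjamini-Hochberg adjustment over all of them. It was tested on simulated data with as many genes raised as lowered, which does not bear on the scaling between libraries. This scale understates the change of low genes. Alternatives were a pseudocount of 0.1, no filter, a mean of at least 5 FPKM, median-of-ratios scaling, rescaling to TPM, limma-voom with TMM factors on the recovered reads, the replicate number as a block, and leaving out each of 6 libraries; with the fit as reported these are the 14 settings. Replicate numbers were not taken to pair libraries, since their deviations from group means did not correlate over 0.1 for every number.

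Earlier results of these data were known when the members, lists, tests and naming rule were set. That rule names, in each complex, up to 5 subunits with the smallest p, the most abundant subunit, subunits called against the direction of their complex, subunits below the filter and isoform pairs, and up to 4 genes with the smallest p of each other list. One gene is not reported here. Genes named beyond it were chosen after their values were seen. Tables were read with Python 3.11.15. Promoters are from RefSeq on GRCm38.p6.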

Additional observations from a re-analysis of the deposited data

How the results depend on the processing

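The members called lower, 53 as reported, were 20 with median-of-ratios scaling and 5 with limma-voom, and those called higher, 1 as reported, were 3 and 8; 2 were higher with rescaling to TPM and without a filter, and 1 to 2 with 1 library left out. Lower calls with median-of-ratios scaling were 9 in complex I, 1 in complex II, 1 in complex III, 2 in complex IV and 5 in complex V. With limma-voom they were 2 in complex I, 0 in complexes II, III and IV and 3 in complex V. Over all genes tested, 3030 (30.1%) and 2231 (22.2%) were lower under these scalings, and 1260 were higher with a mean of at least 5 FPKM. The median of complex II turned positive with median-of-ratios scaling (0.11), with limma-voom (0.18) and without GPR35-positive replicate 2 (0.0185), and with 1 library left out it ran from −0.11 to 0.0185, that of complex IV with median-of-ratios scaling (0.027) and limma-voom (0.10), and that of complex V with limma-voom (0.025). Cox8a (0.19) and Ndufa2 (0.0067) turned positive with limma-voom. Both scalings shift the libraries against each other by construction. With 1 library left out 40 to 52 members were lower, the 40 (45.5%, against 44.1% of all genes) without GPR35-positive replicate 2. With the replicate number as a block 59 members were lower and 2, Cox4i2 and Ndufa1, higher; deviations of same-numbered libraries correlated at −0.00177, 0.400 and −0.0642, and not every library correlated best with its own number. Depth limits the isoforms with at most 3 reads in a library, Cox6a2, Cox6b2, Cox7b2, Cox8b and Cox8c.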
